A study of Junco hyemalis with 48 samples.

Results

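The values described here are those of 8 gene models whose RNA level varied more between libraries of the bicoloured tail feather R4 (the fourth rectrix) of the dark-eyed junco (Junco hyemalis) than between libraries of the whole tail feathers R2 (the second) and R6 (the sixth), and rose where a few transcripts took a larger share of the library. The deposited table holds 20808 gene models under identifiers made of the letter g and a number, with no gene symbols beside them, so no role is given for any member. Members were chosen by measured values in these libraries. A first step kept 9925 gene models with a mean of 5 to 1000 CPM (the count scaled by the library total to a common size) over all libraries and a ratio of mean CPM in R2 over R6 from 0.8 to its inverse. These were ranked by the standard deviation (SD) of log2(CPM + 1) over the 24 R4 libraries minus that over the 24 whole-feather libraries. Of the first 300, the members are those whose log2(CPM + 1) correlated positively, over the R4 libraries, with the percent of a library's counts held by its top 20 gene models, a measure called transcript dominance here. They are g9061, g4112, g18839, g3974, g20507, g2711, g9766 and g1492, and the other 292 of the 300 fell with dominance.

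The study set white tail feathers of the junco beside dark ones, and compared 48 libraries from 7 birds, called A to G here. Tail feathers (rectrices) of the left and right side had been plucked to start regrowth, and their successors were collected after 14 days. No other treatment is labelled, and all groups share this one. The dark part of the fourth rectrix (R4 dark) had 13 libraries from 7 birds and its white part (R4 white) 11 libraries from 6, with none from bird C. The wholly dark second rectrix (R2) had 11 libraries from 6 birds, with none from bird E, and the wholly white sixth rectrix (R6) 13 from 7. Per the labels' protocols, the R4 parts were cut apart before freezing and R2 and R6 were frozen whole, so dissection and feather position cannot be told apart between R4 and whole feathers. The series text counts 7 birds and the growth protocol 6, and the libraries carry 7 animal identifiers. Bird E's R4 white library was in labelled RNA extraction batch 3, and its R4 dark and R6 libraries in batch 2. Its differences between R4 white and the others thus also cross batches.

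A growing feather is a tube of epidermis around a living pulp. Cells divide at its base, and barbs differentiate and keratinise as they move toward the tip. Pieces cut at different distances from the base would thus differ in stage of growth. Whether the R4 parts differ in this way was not tested. Maturing feather keratinocytes make large amounts of a few structural protein transcripts, and melanocytes at the base pass melanin to the keratinocytes of dark barbs. Which genes make up the top 20 is not known here. In bulk tissue, fewer cells of a type and less RNA per cell cannot be told apart.

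Library totals ran from 12.99 to 53.46 M counts. Dominance was 11.3% to 18.4% in R4 dark, with a median of 13.5%, and 12.1% to 25.1% in R4 white, with a median of 16.5%. In whole feathers it was narrower, 13.3% to 16.01%. Over the libraries 37 gene models were ever in a library's top 20, and 0 of the 8 members were among them. Dominance and CPM are both divided by the library total, which includes the members' counts. A larger top 20 share thus leaves a smaller share for all other gene models together. A member had 9 to 27870 counts in a library, with a median of 583. The left R4 dark library of bird B stood apart in the members' values, and the correlations and fits below are also given without it or without bird B's R4 dark profile where that moves them.

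Members that rise with dominance were rare among gene models that vary in R4. They made up 2.67% of the first 300, whereas 19.4% of the 9925 gene models inside the limits had a positive correlation. Going down the ranking there were 3 in the first 100, 12 in the first 400 and 40 in the first 1000. The member nearest the limit on correlation was g9061 with r = 0.17, followed by g20507 with r = 0.30. On the other side the first values were -0.15 and -0.19. When bird A was left out, g9061 stayed among the first 300 but its r was not above 0. Its positive r thus depends on that bird. The limit on rank fell between an SD difference of 0.481055 at rank 300 and 0.480714 at the rank after it, and the next gene model with a positive r stood at rank 303. All these values use CPM from the library total as deposited. With TMM-scaled library sizes the rule gave 19 members.

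The member g9061 had its own pattern, low in both R4 parts. Its lowest, median and highest values were 41.9, 70.4 and 377.2 CPM in R4 dark and 34.6, 92.5 and 256.6 CPM in R4 white. In whole feathers they were 294.1, 419.2 and 556.5 CPM in R2 and 244.9, 322.6 and 504.2 CPM in R6. Most R4 libraries thus lay below every whole feather, and the ranges overlapped through the R4 dark libraries of bird C, at 377.2 and 346.1 CPM, and of bird F, at 319.9 CPM on the right, and through the left R4 white library of bird A. In R4, 65.7% of the variance of its log2(CPM + 1) lay between birds, 13.7% between the sides of a bird and part, and 0.00485% between the dark and white part. Over birds, R4 dark averaged 139.5 CPM ± 127 (SD, n = 7) and R4 white 121 CPM ± 59.0 (SD, n = 6), while R2 averaged 428 CPM ± 74.1 (SD, n = 6) and R6 355 CPM ± 78.6 (SD, n = 7). The means of the R4 parts differed by less than their spread. Neither these means nor the share between parts is paired by bird, and bird C has R4 dark libraries only. In the 6 birds with both parts, R4 dark minus R4 white averaged -0.39 ± 0.99 in log2(CPM + 1) (SD, n = 6), below 0 in 4. R2 lay above R6 in 6 of 6 birds, by 0.37 ± 0.17 in log2(CPM + 1) (SD, n = 6).

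The other 7 members shared a pattern, with R4 white highest and R4 dark lowest in median. They were set apart from g9061 after the values were seen, so summaries over the 7 are descriptions. The gene model g4112 had 34.7, 113.9 and 244.6 CPM in R4 dark (lowest, median and highest) and 98.5, 251.7 and 566.9 CPM in R4 white, against 133.0, 197.2 and 330.6 CPM in R2 and 136.7, 172.5 and 245.0 CPM in R6. The ranges of all 4 groups overlapped. R4 dark ran past whole feathers at the low end, and R4 white at the high end and, through the right library of bird F, at the low end.

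For g18839 the same 3 values were 6.11, 9.58 and 40.0 CPM in R4 dark and 4.98, 24.7 and 40.8 CPM in R4 white, against 12.3, 13.01 and 18.5 CPM in R2 and 11.4, 13.7 and 20.3 CPM in R6. Its highest R4 dark value came from the left feather of bird B, and the next R4 dark library held 16.4 CPM. In g20507 they were 0.483, 4.98 and 61.5 CPM in R4 dark and 3.62, 11.6 and 41.4 CPM in R4 white, against 4.35, 5.43 and 22.2 CPM in R2 and 5.06, 7.59 and 27.1 CPM in R6. The lowest value rests on 9 counts, in the right R4 dark library of bird D, and the highest is again the left R4 dark library of bird B.

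The remaining 4 members had the same order of medians at the ends. For g3974 the medians were 138.5 CPM in R4 dark, 367.7 in R4 white, 239.8 in R2 and 263.2 in R6, with R4 libraries between 64.9 and 944.6 CPM. Those of g2711 were 6.53 CPM in R4 dark, 16.5 in R4 white, 8.82 in R2 and 8.09 in R6. The medians of g9766 were 9.03 CPM in R4 dark, 16.4 in R4 white, 11.5 in R2 and 12.4 in R6, and those of g1492 were 16.9 CPM in R4 dark, 38.1 in R4 white, 23.6 in R2 and 29.6 in R6. The highest g1492 value, 107.9 CPM, was once more in the left R4 dark library of bird B.

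**Figure D1:**
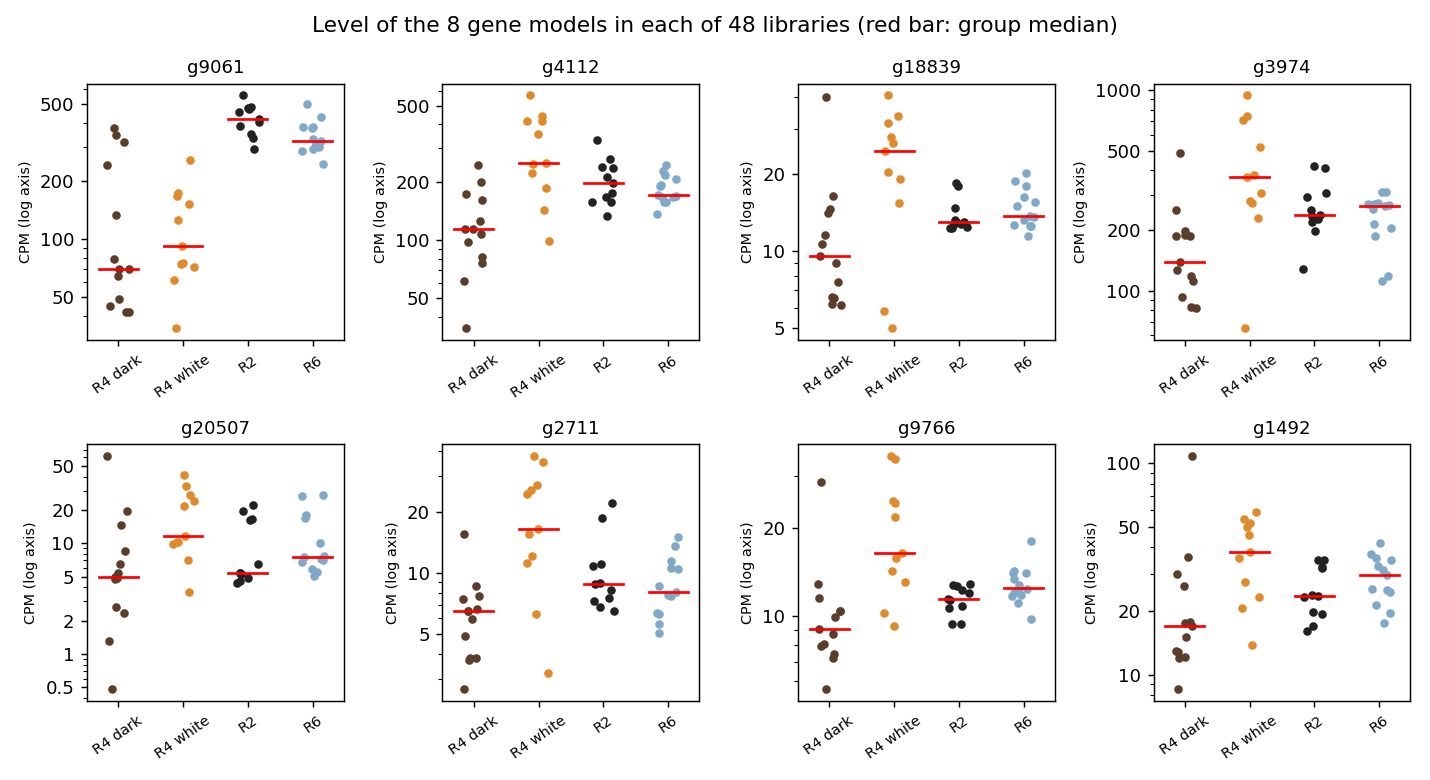
Level of each member in every library, in CPM on a logarithmic axis, for R4 dark, R4 white, R2 and R6. Each point is 1 of 48 libraries and the red bar is the group median. In 7 members R4 white has the highest median and R4 dark the lowest, and g9061 lies at 41.9 to 377.2 CPM in R4 dark and 34.6 to 256.6 CPM in R4 white, against 244.9 to 556.5 CPM in whole feathers.

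Libraries at the extremes were largely the same ones for the 7 members. A summary value was taken as the mean, over the 7, of log2(CPM + 1) minus each gene model's mean over all libraries. It was highest in the left R4 white library of bird G, at 1.56, followed by the left R4 dark library of bird B, at 1.34, and both R4 white libraries of bird A, at 1.20 and 1.13. It was lowest in both R4 dark libraries of bird D, at -1.44 and -1.35, and in the right R4 white library of bird F, at -1.08. Whole feathers lay between -0.43 and 0.61. The R4 dark libraries of bird C, at -0.23 and -0.09, were inside that range. This summary correlated with the log2 library total with r = -0.05 over the 24 R4 libraries and -0.32 over the whole-feather libraries.

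Pairwise correlations over the 24 R4 libraries set the 7 members together and g9061 apart. The 21 pairs among the 7 had r between 0.61 and 0.93, with a median of 0.84. Without the left R4 dark library of bird B the median was 0.86. Both parts were pooled there, and the difference between them adds to r. Within R4 dark the median was 0.75 and within R4 white 0.86, each with 21 of 21 pairs positive. Without that library of bird B, the R4 dark median was 0.52, with 19 of 21 positive and a lowest r of -0.13. Over all 24 R4 libraries the 7 pairs with g9061 had r between -0.21 and 0.19. In part this follows from the rule, which chose gene models by 1 shared variable, and all 300 ranked gene models also correlated among themselves, with a median r of 0.89. In the 24 whole-feather libraries, whose correlations the rule did not use, the 21 pairs had r between -0.34 and 0.82. Their median was 0.33, and 19 were positive. The 7 pairs with g9061 were all negative there, between -0.44 and -0.08. No share over other gene models was computed for these counts, so nothing is read from them. Between birds lay 42.2% (g9766) to 94.1% (g20507) of the 7 members' variance in whole feathers. All these libraries share birds and library totals, so the values are descriptions.

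Relative to the 292 falling gene models, the 7 members had a median r of -0.43 over 2044 pairs in R4, and g9061 one of -0.11 over 292 pairs. The rule parted rising from falling gene models by their r with dominance in these same libraries, so a negative r is largely built in.

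**Figure D2:**
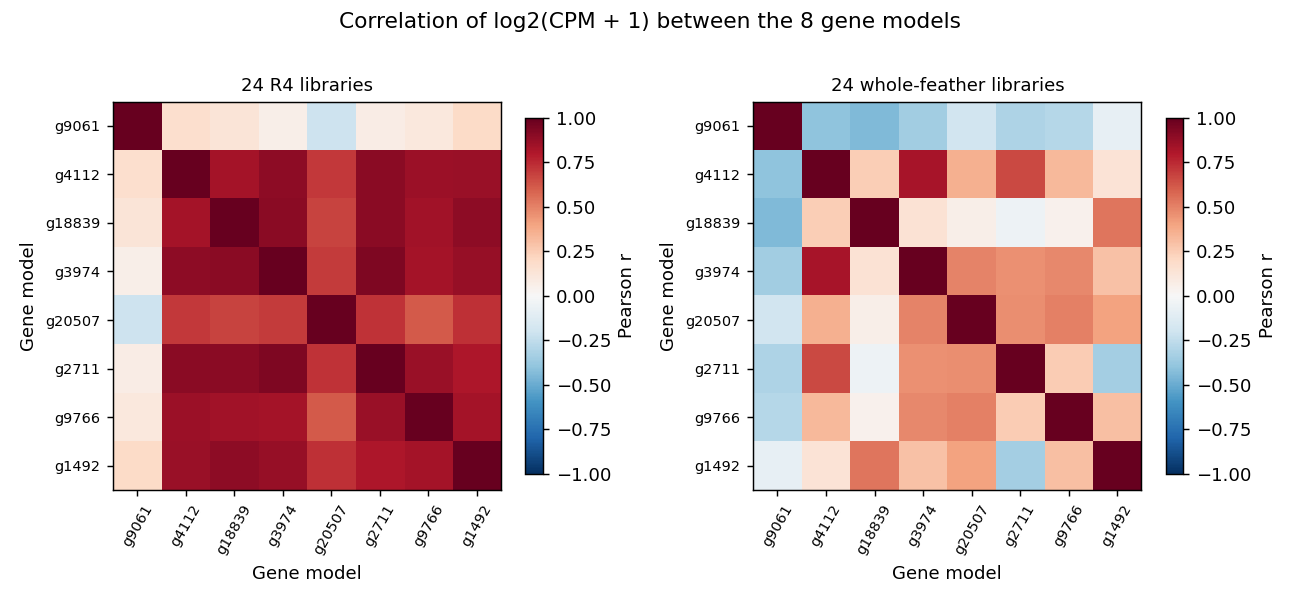
Pearson correlation of log2(CPM + 1) between each pair of members, in 24 R4 libraries and in 24 whole-feather libraries, with red for positive and blue for negative r. Among 7 members r is 0.61 to 0.93 in R4 and -0.34 to 0.82 in whole feathers, and the row of g9061 is near 0 in R4.

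The rise with dominance, which the rule used, was uneven across libraries. Over all 24 R4 libraries the members' r ran from 0.17 for g9061 to 0.85 for g9766, with a median of 0.71. Since R4 white had more dominance than R4 dark, the colours contribute to that value, and the parts are therefore given separately. In the 11 R4 white libraries 8 of 8 members had a positive r, with a median of 0.78, where 21.4% of gene models inside the limits did. In the 13 R4 dark libraries 8 of 8 were positive, with a median of 0.24 and 26.4% of all. Without the left library of bird B, 3 of 8 remained positive in R4 dark, with a median of -0.09 and 29.3% of all. Over all R4 libraries without that library, 8 of 8 were positive, with a median of 0.71. The weakest within parts were g20507, with r = 0.065 in R4 dark and 0.13 in R4 white, and g9061, with 0.12 and 0.33. Without the left library of bird B, r in R4 dark was -0.62 for g20507 and 0.40 for g9061.

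By labelled RNA extraction batch, the members' median r in R4 was 0.84 in batch 1 (birds A and B, 8 libraries, 8 of 8 positive, 20.1% of all gene models) and 0.90 in batch 3 (birds F and G plus bird E's R4 white library, 9 libraries in all, 7 of 8 positive, 22.8% of all). In batch 2 (birds C, D and E, 7 libraries) it was -0.02, with 3 of 8 positive and 25.4% of all. In batch 2 the members' median was thus near 0, against -0.42 over all gene models. There the right R4 dark library of bird D had 18.2% dominance and a summary value of -1.35. For g9061, r was 0.77 in batch 1, -0.02 in batch 2 and -0.14 in batch 3. These values pool both parts, in a mix that differs by batch. Bird C had no R4 white library and that of bird E was in batch 3, so batch 2 held mostly R4 dark. Batch and part thus cannot be told apart here.

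**Figure D3:**
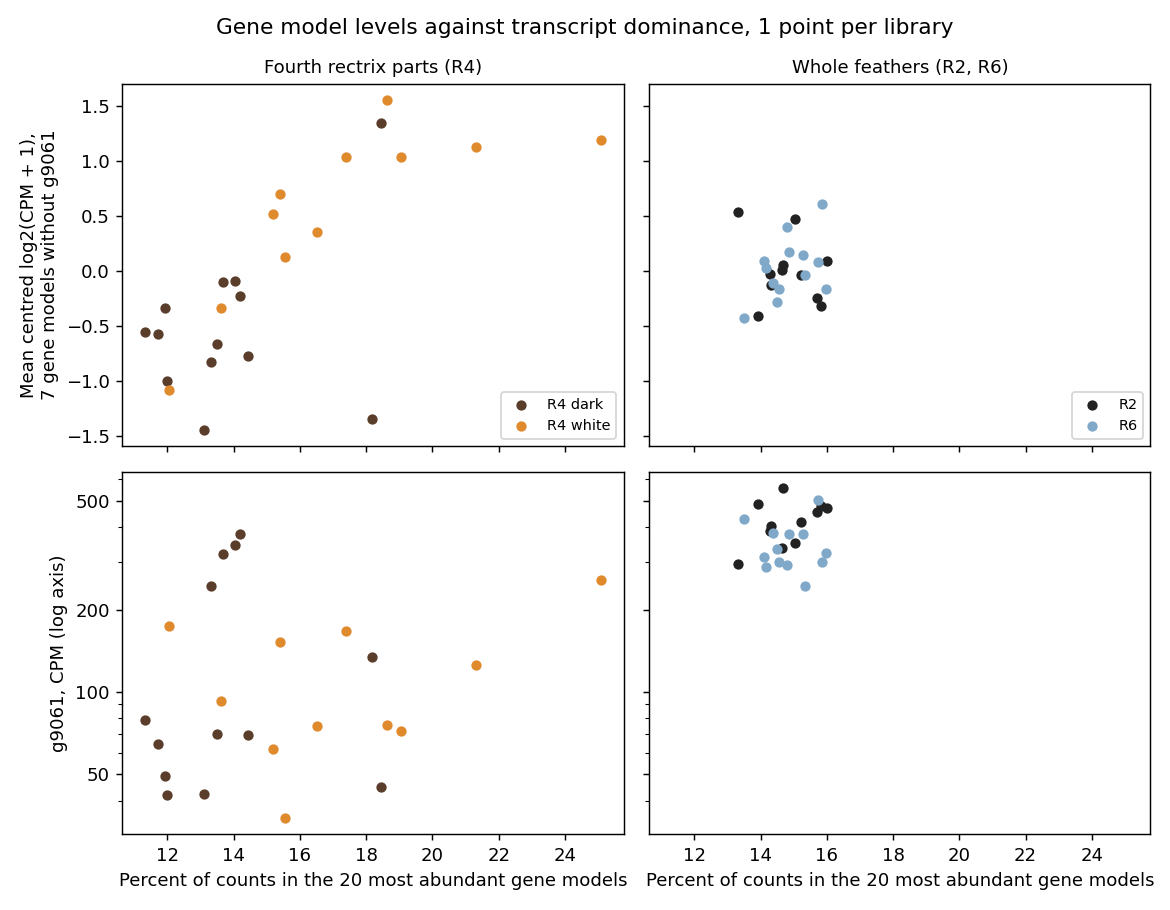
Transcript dominance on the x axis, as the percent of a library's counts held by its top 20 gene models, against the mean centred log2(CPM + 1) of 7 members (top) and the CPM of g9061 on a logarithmic axis (bottom), in R4 parts and in whole feathers. Each point is a library. In R4 the 7 members range from -1.44 to 1.56 and in whole feathers from -0.43 to 0.61, over a dominance of 11.3% to 25.1% and 13.3% to 16.01%.

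Feathers from both sides of a bird's tail showed how much of this variation arose within a bird and part. Over 11 R4 pairs the absolute left minus right difference in the mean log2(CPM + 1) of the 7 members ran from 0.065 to 2.12, with a median of 0.43. Over 11 whole-feather pairs it ran from 0.000244 to 0.20, with a median of 0.064. Over all 8 members the median absolute difference was 0.46 in R4 and 0.14 in whole feathers, where that of all gene models inside the limits was 0.13 and 0.11. The members were chosen for spread in R4, so the larger R4 value is a description.

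The 7 members differed in the direction of dominance in 8 of 11 R4 pairs and 5 of 11 whole-feather pairs. Bird B had the widest gap in R4 dark, with the left library 2.12 higher at 18.4% dominance against 14.4% on the right. In R4 white of bird F the left library was 1.79 higher at 15.4% against 12.1%. In R4 dark of bird D the left library had 5.09 percentage points less dominance and the members differed by -0.092. The pairs of opposite direction were the R4 dark pairs of birds A and C, with differences of 0.43 and -0.14, and the R4 white pair of bird G, with 0.52. The correlation of left minus right differences was positive for 8 of 8 members, with a median r of 0.64 over the 11 pairs and 0.58 without the R4 dark pair of bird B, where 27.9% and 25.5% of all gene models were positive. The rule chose the members for a positive r over these same libraries, so this count describes them and supports nothing.

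**Figure D4:**
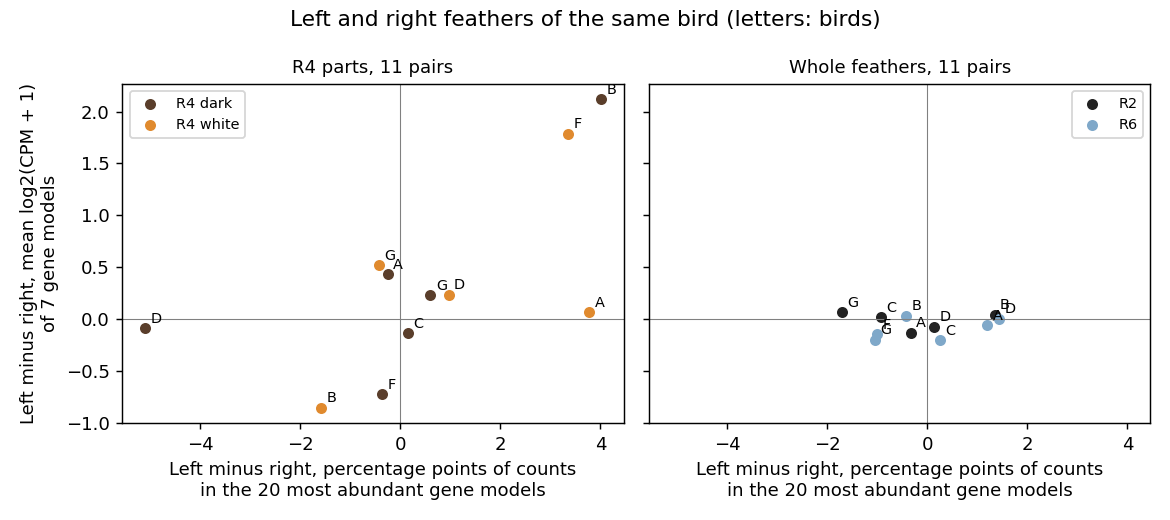
Left minus right difference in dominance, in percentage points, against the left minus right difference in mean log2(CPM + 1) of 7 members, with 1 point per pair of feathers and the letter of the bird. R4 pairs reach 2.12 in bird B and 1.79 in bird F, and whole-feather pairs lie between -0.20 and 0.061.

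The rule can be repeated on one side of the tail and read on the other. Chosen on left feathers, 6 gene models qualified, and 4 of them had a positive r over the 11 right R4 libraries, with a median of 0.60, where 23.0% of gene models did. Chosen on right feathers, 17 qualified, and 12 were positive over the 13 left R4 libraries, with a median of 0.52, where 19.5% did. Left and right libraries share birds and the difference in dominance between R4 dark and R4 white, so these are not independent samples. Each r here pools both parts, and nothing is read from these counts. Of the 8 members, 5 were chosen on the left side and 5 on the right.

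The rule used the spread in whole feathers, and favoured a low one, but not their relation to dominance. The slope on dominance there is thus only partly separate from the rule, and nothing is read from its share of calls. It was fitted with edgeR's quasi-likelihood test over the 24 R2 and R6 libraries with the bird and group as a block, so that left against right feathers carried it. Across all gene models 24.1% (3436 of 14234) passed an adjusted p of 0.05 (Benjamini-Hochberg), here termed called, and 1 of 8 members was. That member, g4112, fell by 0.10 on the log2 scale per percentage point of dominance (SE 0.036, edgeR adjusted p = 0.0411), opposite to its direction in R4. Slopes were above 0 in 4 of 8 members and in 46.7% of all gene models. The closest other values were 0.13 per point for g1492 (SE 0.051, edgeR adjusted p = 0.0567) and 0.14 for g18839 (SE 0.063, edgeR adjusted p = 0.116). The call of g4112 was lost in 10 of 15 alternatives, among them those without the block and without bird A, C, D, F or G (edgeR adjusted p between 0.0741 and 0.156 without a bird), and without bird C, with the 50 most abundant gene models and at a mean of at least 5 CPM, g1492 was called higher instead. Over 13 profiles with the bird as block, g3974 was called lower, with a slope of -0.37 (edgeR adjusted p = 0.00201).

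The mean level in R4 against whole feathers of the same birds was not itself in the rule. A gene model raised or lowered in some R4 libraries nevertheless gains spread and shifts in mean. In this contrast 0.404% of gene models (64 of 15844) were called, and 1 of 8 members was. That member, g9061, was lower in R4 with a log2 fold of -1.72 (SE 0.28, edgeR adjusted p = 0.00363). This fit pools the spread of R4 with that of whole feathers, which may be too small for members chosen for R4 spread. The call of g9061 is thus a description. For the other 7 the log2 folds lay between 0.019 and 0.28, with edgeR adjusted p between 0.681 and 0.981, and the median over all gene models was 0.00. The median of the 8 members was 0.22, and 0.064 without bird B's R4 dark profile. On left feathers alone it was 0.44, with 7 of 8 members above 0, and on right feathers alone -0.060, with 1 of 8. The call of g9061 was lost without bird B, D or G, with edgeR adjusted p of 0.0588, 0.0632 and 0.0518, while its log2 fold stayed between -1.96 and -1.53 under every alternative run.

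By bird, g9061 was lower in the R4 part in every pair. On the log2(CPM + 1) scale R4 dark minus R2 averaged -1.98 ± 1.21 (SD, n = 6), from -3.17 in bird B to -0.16 in bird C, and R4 white minus R6 averaged -1.70 ± 0.75 (SD, n = 6), from -2.59 in bird D to -0.56 in bird A. By extraction batch, R4 dark minus R2 was -2.80 and -3.17 in birds A and B, -0.16 and -2.62 in birds C and D, and -0.80 and -2.35 in birds F and G. In the fit over all groups, g9061 had a log2 fold of -1.999 for R4 dark over R2 (SE 0.39, edgeR adjusted p = 0.0600) and -1.44 for R4 white over R6 (SE 0.39, edgeR adjusted p = 0.128). For R4 dark over R2 the edgeR adjusted p was 0.00993 without bird C, between 0.0666 and 0.446 without any other bird, 0.312 without the block and 0.638 when only R4 dark and R2 were fitted.

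The 7 members lay on both sides of whole feathers of the same colour. These contrasts were added after that was seen in the values, and the rule used the R4 spread, so the members' results are descriptions. For R4 dark over R2, 0.126% of gene models (20 of 15844) were called in edgeR and 0 of 8 members were, while 2 members and 924 gene models had an unadjusted p below 0.05. Limma voom called 53 gene models with 1 member, g9061, among them, and edgeR without bird C called 25 with the same member. Without bird B's R4 dark profile 8 members and 1499 gene models had an unadjusted p below 0.05, and the members' median log2 fold was -0.67, against -0.38 with it, while 0 members were called. The 7 log2 folds ran from -0.79 for g4112 (SE 0.29, edgeR adjusted p = 0.628) to -0.17 for g9766. The mean difference over the 7 was -0.46 ± 0.54 in log2(CPM + 1) (SD, n = 6), below 0 in 5 of 6 birds and 0.21 in bird B.

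For R4 white over R6, 0.467% (74 of 15844) were called in edgeR and 0 of 8 members were, while all 8 members and 2231 gene models had an unadjusted p below 0.05. Voom called 180 gene models, with 2 members among them. The 7 log2 folds ran from 0.62 for g1492 to 1.12 for g2711, with edgeR adjusted p between 0.134 and 0.321. Over the 8 members the median was 0.76, against 0.00 over all gene models. The mean difference over the 7 was 0.57 ± 0.48 (SD, n = 6), above 0 in 5 of 6 birds and -0.07 in bird B. Without bird B, 616 gene models and 6 of the 8 members were called, and without only its R4 dark profile 316 and 1.

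The difference between both contrasts, R4 dark over R2 minus R4 white over R6, was also fitted. Colour adds to the R4 spread that chose the members, and the rule kept R2 close to R6. The members' values and calls in this fit are thus descriptions. In edgeR 0.133% of gene models (21 of 15844) were called and 0 of 8 members, with 5 members and 1394 gene models at an unadjusted p below 0.05, and voom called 83 gene models with 3 members among them. Log2 differences ran from -1.78 for g2711 (SE 0.45, edgeR adjusted p = 0.161) to -0.56 for g9061 (SE 0.55, edgeR adjusted p = 0.793). Without bird B 6 members were called among 291 gene models, and without its R4 dark profile alone 5 among 218.

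**Figure D5:**
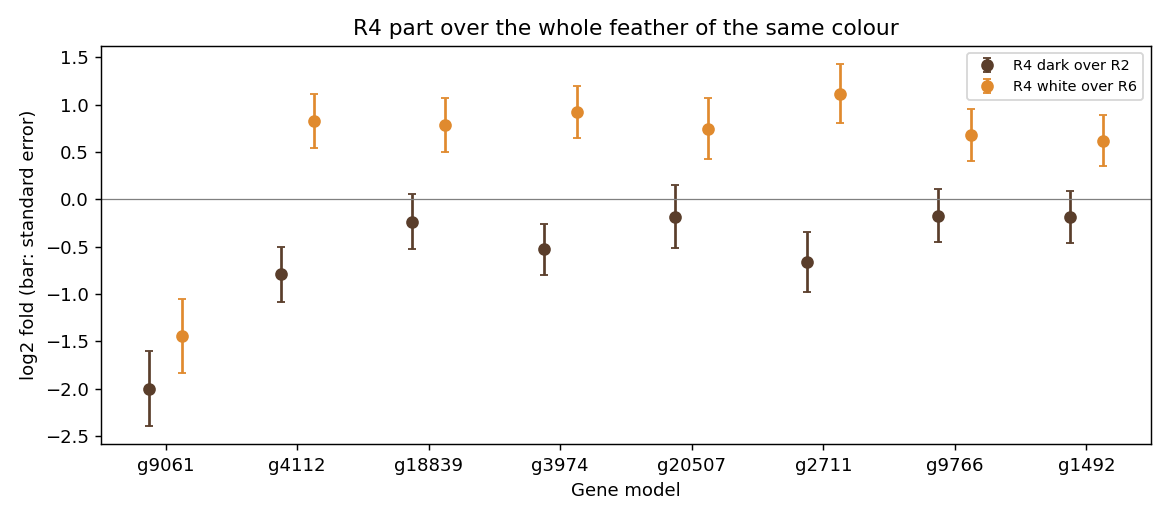
Log2 fold of each member for R4 dark over R2 and for R4 white over R6, with the standard error as bar, from edgeR over 26 profiles of bird and group. For 7 members the R4 white fold is 0.62 to 1.12 and the R4 dark fold -0.79 to -0.17, and for g9061 the folds are -1.999 for R4 dark and -1.44 for R4 white.

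Within R4, the dark part was lower than the white part in the 7 members on average. Colour adds to the R4 spread that chose them, so these values are a description. In edgeR on the R4 profiles alone 0% of gene models (0 of 15472) were called, and 587 had an unadjusted p below 0.05, among them 7 of the 8 members. DESeq2 called 24 gene models, with 3 members among them (g4112, g3974 and g2711), and edgeR over all 26 profiles called 117, with the same 3. The fit over 26 profiles pools the spread of R4 with that of whole feathers, 16.2% as a coefficient of variation against 25.7% in R4 alone. That pooled spread is too small for members chosen for R4 spread, so those calls are not weighed. Without bird B, edgeR called 10 gene models, with g1492 among them. Dropping only bird B's R4 dark profile leaves its white profile without a partner in the block, so that fit is nearly the same one. There 7 members and 2273 gene models had an unadjusted p below 0.05. The members' median log2 fold was then -1.69, against -1.33 with that profile. Log2 folds of R4 dark over R4 white were -1.69 for g4112 (SE 0.44), -1.23 for g18839 (SE 0.46), -1.44 for g20507 (SE 0.49) and -0.49 for g9061 (SE 0.38), each with an edgeR adjusted p of 0.984. Without bird B's R4 dark profile the edgeR adjusted p was 0.0574 for g4112, 0.118 for g20507, 0.148 for g18839 and 0.497 for g9061. By bird the mean difference of the 7 was -1.19 ± 0.91 in log2(CPM + 1) (SD, n = 6). It lay between -1.95 and -1.64 in birds A, D, E and G, at -0.27 in bird F and at 0.19 in bird B. The parts of bird E came from different extraction batches. In bird B the sides were opposed. On the left the summary value of the 7 was 1.34 in R4 dark and -0.34 in R4 white. On the right it was -0.78 in R4 dark and 0.52 in R4 white.

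Where the R4 variance of each member lay also differed. The colour of the part held 44.7% of it for g4112, 43.0% for g2711, 37.2% for g9766 and 34.4% for g3974. For g18839 the share between sides of the same bird and part was the largest, at 40.9%, with 22.3% between parts, and for g20507 the share between birds was, at 46.2%. In whole feathers birds held 94.0% of the variance of g3974 and 94.1% of that of g20507. For these gene models a bird's R2 and R6 levels thus lay together.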

How the data were processed

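RNA was sequenced from growing feathers as stranded mRNA libraries, per the labels' protocols. The authors deposited raw counts per gene model, whose pipeline used STAR 2.7.2b, Subread 1.6.0, featureCounts, Trimmomatic 0.33 and bcl2fastq, per the submitters' processing notes. The genome, annotation and strand setting are not stated, so overlapping or duplicated gene models are uncertain. The members and all lists were chosen with earlier results of these data known.

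CPM values of members use the library total as deposited. For tests, left and right counts of 1 bird and group were summed into 26 profiles, and edgeR 4.0.16 in R 4.3.3 (quasi-likelihood F test, robust, TMM factors, default filter, bird as block) was adjusted over all gene models tested. All 8 members passed the filter. Fits over all 26 profiles pool the spread of R4 and whole feathers, which may be too small for members chosen for R4 spread. DESeq2 1.42.0 and limma voom 3.58.1 were alternatives. Same-bird profiles of R4 dark and R2 pair by animal, with a median r of their deviations of 0.68 (0.13 to 0.77). Those of R4 white and R6 do so too, with 0.51 (0.13 to 0.73). For R4 dark and R4 white the median was 0.17 (-0.48 to 0.51), so pairing was not seen in every bird. Between different birds the medians were -0.08, -0.07 and -0.01 in the same order. Left and right libraries differed by a chi-square per gene of 4.36 or more, above counting noise, so none was the same library sequenced again. This value cannot tell apart separate feathers from separate libraries of the same tissue. The 4 gene models described in full (g9061, g4112, g18839, g20507) are those with the lowest and highest R4 over whole-feather folds at a mean of at least 10 CPM. Steps were tested on simulated data.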

Additional observations from a re-analysis of the deposited data

Results flagged for a closer look

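Bird values of the 8 members and of transcript dominance were examined in each group for a bird far from the others. Of 36 groups, 3 held such a bird. A rate of 1 in 20 would give 1.8, but that rate is for groups not chosen by their spread. The members were chosen for more spread in R4 than in whole feathers, which favours an extreme bird in R4. Most members also correlate with each other in R4, so the groups are not independent. Nothing is thus read from this count, and the birds are listed as descriptions. In R4 dark, g9766 reached 20.75 CPM in bird B, and the next bird held 10.75 CPM. For g18839 in R2, bird C had 18.19 CPM and the next bird 14.04 CPM. For g2711 in R2, bird G had 20.45 CPM, and the next bird held 9.92 CPM.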

How the results depend on the processing

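The rule gave 19 members with TMM-scaled library sizes, 13 without the R4 dark libraries of bird B, 17 on right feathers alone and 5 to 14 when a bird was left out. Of the 8 members, 5 were kept on left feathers, 5 on right feathers and 5 to 8 without a bird, and 7 without the left R4 dark library of bird B, a setting added after the data were seen. Only g4112 and g18839 were kept in all 16 alternatives run, and g1492 in the fewest, 11.

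For R4 over whole feathers, members called ran from 0 to 1 without a bird. Gene models called were 135 in DESeq2 and 18 on right feathers, against 64. Log2 folds of the other sign were g4112 -0.067, g18839 -0.025 and g20507 -0.069 on right feathers, g4112 -0.13 without bird B's R4 dark profile and -0.085 with voom, and g4112 ran from -0.054 to 0.13 without a bird. For R4 dark over R4 white, members called were 3 in DESeq2, 3 over all 26 profiles, 1 without bird B's R4 dark profile (g1492) and 0 to 1 without a bird. The 1 came without bird B, which is nearly the same fit as without that profile. In this contrast g9061 was 0.31 on right feathers.

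Without the replicate block of birds, 17 gene models were called for R4 over whole feathers, g9061 was 0.077 for R4 dark over R4 white and g20507 was 0.10 for R4 dark over R2. That last fold ran from -0.53 to 0.013 without a bird. For the whole-feather slope, 0 members were called with no replicate block (518 gene models in all) and 0 with the 10 most abundant gene models, and 0 to 1 without a bird. The slope of g9061 was 0.083 with no replicate block, 0.13 over 13 profiles with the bird as replicate block and -0.089 to 0.022 without a bird. Gene models called without a bird ran from 32 to 65 for R4 over whole feathers, 0 to 25 for R4 dark over R2, 17 to 616 for R4 white over R6 and 945 to 3898 for the slope. Fits of 2 groups alone called 0 for R4 dark over R2, where 858 had an unadjusted p below 0.05, and 22 for R4 white over R6. Voom called 53 for R4 dark over R2 and 180 for R4 white over R6, and edgeR with no replicate block called 8 for R4 white over R6. The cause of these changes was not tested.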
